A study of Mus musculus with 11 samples.

Results

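The difference in open chromatin between embryonic stem cells of DBA/2J (D2) and C57BL/6J (B6) mice was examined with ATAC-seq, an assay that reads where the transposase Tn5 can reach and cut the DNA. The comparison takes 6 of the 11 libraries of the series, 3 of D2 and 3 of B6, and all 248336 regions of the table the authors deposited, of which 246840 had enough counts to be tested. The B6 libraries came from 1 C57BL/6J line (B6 5-1) and the D2 libraries from 1 DBA/2J line (D2 5-5). Both lines were of the plain strain genotype, with no introduced allele. They were grown in serum medium with LIF, the MEK inhibitor PD0325901 and the GSK3 inhibitor CHIR99021, and 100000 cells went into each FAST-ATAC library, read at 150 bp. The labels call the libraries of a line technical replicates, so errors and p-values describe the spread between libraries, and every difference is one between 2 cell lines. The series also holds 2 libraries of B6-13D2, from 1 line of the congenic strain B6.D2-(rs30079041-rs51756099)/Bakr, and 3 of D2-13B6, from 1 line of D2.B6-(rs29224292-rs13469455)/Bakr. The names are those of the sample labels, and each strain carries a chromosome 13 interval of the other. Those 5 libraries share none with the comparison of D2 and B6, and are set beside it as D2-13B6 against B6-13D2. Going by the strain names, off chromosome 13 that is again a D2 against a B6 genome, while in the exchanged interval the genotypes are swapped. Whether segments of the other strain remain elsewhere in the congenic lines was not tested. Counts were set against the B6 reference build GRCm38 (mm10), and a region absent, altered or multiplied in the D2 genome cannot be told apart here from one that is closed or open to the transposase.

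B6 and D2 are old inbred strains that differ at many sites and by insertions of endogenous retroviruses, gains and losses of DNA. Inhibition of MEK and GSK3 together with LIF holds mouse embryonic stem cells in a naive state, in which enhancers bound by OCT4, SOX2, ESRRB and KLF factors are open. AP-1, a dimer of FOS and JUN family proteins that acts downstream of growth factor signals, opens enhancers in differentiated cells such as fibroblasts. Zinc finger proteins with a KRAB domain recruit heterochromatin to retroviral repeats, and one of them, ZFP57, keeps the methylated copy of imprinting control regions closed.

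Total counts in regions were 15198496 to 27293140 in the B6 libraries and 34945034 to 39770267 in D2. Chi-square per degree of freedom between pairs of libraries was 2.98 to 4.12 in D2 and 2.06 to 2.27 in B6. It was taken on raw counts and rises with depth, so it cannot tell whether the deeper D2 libraries varied more. Values below are normalised CPM, that is, counts scaled to library totals corrected by TMM. The labelled cell type was checked against its markers: all 10 embryonic stem cell markers had promoter regions, and their summed level was 481 to 500 normalised CPM in B6 and 439 to 486 in D2. Sums for primitive endoderm markers were 104 to 117 in B6 and 116 to 129 in D2, and for trophoblast markers, of which Tpbpa had no region, 132 to 141 and 128 to 142. Neural markers summed to 141 to 145 in B6 and 116 to 144 in D2. For fibroblasts, which serve as feeder cells, 8 of 10 markers had a promoter region and Col3a1 and Lum had none; the sums were 93.1 to 98.9 in B6 and 112 to 121 in D2.

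Narrow regions that rose and narrow regions that fell differed in the letters they held, and 5 regions show the letters involved. In regions of 200 to 500 bp over 1000 bp from any start site, the AP-1 letters TGACTCA, read on both strands, stood in 14.1% of all such regions, in 47.2% of those higher in D2 and in 4.82% of those lower. The letters AAGATGGCG, part of the site of the zinc finger factor YY1, stood in 2.58% of all, 0.588% of the higher and 12.6% of the lower. The 3 AP-1 examples and 2 YY1 examples are those of 200 to 300 bp with the smallest p-values, picked after values were seen. Narrow, promoter and distal regions named by p-value, here and below, were drawn from regions where the D2 and B6 libraries do not overlap. Their lack of overlap thus follows from the choice and is only a description. Sequences are GRCm38, plus strand, with a match to either motif in capitals (as its reverse complement where it lies on the minus strand), and a match is a description of the letters and not evidence of binding.
chr3:77075154-77075420: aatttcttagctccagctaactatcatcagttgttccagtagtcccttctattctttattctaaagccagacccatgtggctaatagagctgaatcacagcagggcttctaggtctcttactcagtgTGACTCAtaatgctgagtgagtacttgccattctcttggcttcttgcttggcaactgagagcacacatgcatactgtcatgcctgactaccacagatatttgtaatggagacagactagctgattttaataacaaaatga
chr11:74566411-74566640: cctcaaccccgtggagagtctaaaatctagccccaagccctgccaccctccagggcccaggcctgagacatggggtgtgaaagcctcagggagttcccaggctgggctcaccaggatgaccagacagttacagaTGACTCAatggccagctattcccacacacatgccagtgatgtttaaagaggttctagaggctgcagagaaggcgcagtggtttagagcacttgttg
chr2:79603434-79603667: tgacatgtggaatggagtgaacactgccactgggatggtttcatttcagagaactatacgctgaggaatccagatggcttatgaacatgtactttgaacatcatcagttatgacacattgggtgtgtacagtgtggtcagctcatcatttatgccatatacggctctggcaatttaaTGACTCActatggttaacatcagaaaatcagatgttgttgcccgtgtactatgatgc
chr4:144652662-144652913: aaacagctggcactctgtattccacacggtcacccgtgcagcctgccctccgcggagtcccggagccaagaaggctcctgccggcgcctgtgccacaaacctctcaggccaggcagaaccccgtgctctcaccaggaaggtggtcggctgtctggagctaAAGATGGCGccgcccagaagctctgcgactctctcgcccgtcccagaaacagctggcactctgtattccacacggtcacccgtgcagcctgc
chr2:95648181-95648467: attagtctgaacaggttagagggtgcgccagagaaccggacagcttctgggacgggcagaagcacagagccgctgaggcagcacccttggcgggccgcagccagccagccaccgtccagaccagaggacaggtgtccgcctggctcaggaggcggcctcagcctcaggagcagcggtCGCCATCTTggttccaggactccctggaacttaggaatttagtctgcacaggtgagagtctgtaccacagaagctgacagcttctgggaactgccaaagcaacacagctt

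The AP-1 region chr3:77075154-77075420, intergenic, had 0.931, 0.732 and 1.53 normalised CPM in the B6 libraries and 3.76, 4.79 and 4.15 in D2. The 3 D2 values lay above all 3 B6 values, with a log2 fold change of 1.97 (SE 0.24) and an adjusted p of 2.54e-09 (edgeR's quasi-likelihood test, Benjamini-Hochberg over all regions tested, as throughout). In an intron of Rap1gap2, which encodes an activator of the GTPase activity of RAP1, chr11:74566411-74566640 had 1.60, 1.22 and 1.71 in B6 and 4.202, 5.84 and 4.70 in D2, again without overlap (log2 fold change 1.68, SE 0.22). The third, chr2:79603434-79603667, lay 31685 bp from the start site of Itprid2 and had 1.06, 0.793 and 0.919 in B6 against 2.98, 3.24 and 4.07 in D2 (log2 fold change 1.85, SE 0.25). All 3 were still higher in D2-13B6, with means of 9.60, 10.7 and 9.03 normalised CPM, against 1.15, 1.62 and 1.10 in B6-13D2.

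Both YY1 examples were intergenic and wholly soft-masked, that is, every base is marked as repeat in the reference. chr4:144652662-144652913 had 1.93, 1.65 and 2.10 normalised CPM in B6 and at most 2 counts in any D2 library, at least 23.3-fold fewer than in B6 with a floor of 3 counts per library. chr2:95648181-95648467 had 2.495, 2.99 and 2.45 in B6 and 0.156, 0.321 and 0.115 in D2, a log2 fold change of -3.70 (SE 0.38). At each of the 2 sites, all D2 libraries lay below all B6 libraries. The D2-13B6 means were 0.0518 and 0.0690 and the B6-13D2 means 1.80 and 1.95.

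Next are 3 of the regions of 200 to 300 bp outside exons with the smallest p-values, 2 higher and 1 lower in D2, shown because they show what the narrow regions with the clearest changes consist of. Neither motif occurs in them. The first is a tandem repeat: 96.6% of its bases equal the base 26 positions further on, and its unit reads ccctggccctgtgcacactgccgcat.
chr8:77448954-77449240: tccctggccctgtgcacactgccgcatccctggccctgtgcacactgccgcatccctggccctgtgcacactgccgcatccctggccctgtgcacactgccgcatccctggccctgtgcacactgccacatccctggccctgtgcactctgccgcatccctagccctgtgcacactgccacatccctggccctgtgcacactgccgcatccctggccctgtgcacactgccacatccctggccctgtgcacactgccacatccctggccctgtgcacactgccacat
chr13:65485164-65485428: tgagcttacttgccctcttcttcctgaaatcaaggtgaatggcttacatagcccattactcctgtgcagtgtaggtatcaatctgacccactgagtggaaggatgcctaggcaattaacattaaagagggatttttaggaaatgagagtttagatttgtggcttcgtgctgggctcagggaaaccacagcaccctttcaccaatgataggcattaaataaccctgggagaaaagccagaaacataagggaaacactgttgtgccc
chr10:81978647-81978885: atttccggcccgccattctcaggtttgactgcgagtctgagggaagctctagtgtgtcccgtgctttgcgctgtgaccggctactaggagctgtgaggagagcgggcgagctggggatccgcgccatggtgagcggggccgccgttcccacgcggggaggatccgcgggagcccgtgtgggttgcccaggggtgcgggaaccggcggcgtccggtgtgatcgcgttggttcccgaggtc

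The tandem repeat chr8:77448954-77449240 lies in an intron of Arhgap10, and none of its bases is soft-masked. It had 0.665, 0.732 and 0.832 normalised CPM in B6 and 8.28, 7.58 and 6.07 in D2, with no overlap (log2 fold change 3.30, SE 0.25, adjusted p = 6.42e-17). D2-13B6 had 1.25, 1.94 and 1.62, above B6-13D2 (0.455 and 0.648) and below D2. chr13:65485164-65485428, intergenic, had 1.03, 1.04 and 0.832 in B6 and 7.03, 5.89 and 5.73 in D2. There B6-13D2 stood with D2, at 10.1 and 12.5, and D2-13B6 with B6, at 0.208, 0.515 and 0.103.

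Lower in D2, chr10:81978647-81978885, with no soft-masked base, had 2.10, 1.46 and 3.02 normalised CPM in B6 and 0.0259, 0.107 and 0.0573 in D2 (log2 fold change -5.04, SE 0.45). At such low D2 levels the size of the fall is uncertain: it was -4.67 without D2 replicate 1 and -5.56 without D2 replicate 2. The line D2-13B6 was not called lower there: it had 0.987, 2.24 and 1.44 and B6-13D2 2.05 and 2.29, and the D2 against B6 effect differed from the congenic one by -4.56 on the log2 scale (SE 0.59, adjusted p = 8.65e-08).

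Of the 246840 regions tested, 22.5% were called different, that is, at an adjusted p under 0.05, with 13.7% higher in D2 and 8.80% lower, and 9.24% were called with a change of at least 2-fold. For comparison, the 3 D2 and 3 B6 values did not overlap in 38.3% of regions. The balance of directions depended on the scaling: the median over all regions was -0.01 (log2 fold change) with TMM and -0.14 when total counts were used. Of the calls, 60.9% were higher in D2 with TMM, 46.8% with total counts and 70.6% with TMM without D2 replicate 2.

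The congenic lines, in which 37.3% of regions off chromosome 13 were called, gave a second measure of the strain difference with separate libraries. Of the 52786 regions called between D2 and B6 off chromosome 13, 48703 (92.3%) had the same sign in D2-13B6 against B6-13D2, and 38792 (73.5%) were called there in the same direction. Opposite calls were made in 727 (1.38%). Among the 182181 regions not called between D2 and B6, 65.9% had the same sign and 21.4% were called with it. Regions higher in D2 were called again in 81.3% of cases and regions lower in D2 in 61.5%. On chromosome 13, where part of the genotypes are swapped, 263 of 2802 calls (9.39%) were opposite. The congenic comparison was shifted along all of that chromosome: its median log2 fold change there was -0.49, against -0.12 over all regions, and 111 of 116 bins of 1 Mb had a median below 0, against 58 in D2 against B6. On chromosome 11 the congenic median was 0.17. Congenic values of single regions on those chromosomes carry these shifts, and their source was not tested.

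Where a region lay was tied to the direction of its change. Regions with an annotated start site inside were called in 37.9% of cases, 7951 higher in D2 and 1243 lower of 24276, with a median log2 fold change of 0.28 against -0.01 for all regions tested. The higher count was 4800 without B6 replicate 2, 4813 without D2 replicate 1 and 4853 with loess offsets on abundance, which also gave 2638 lower. Promoter regions without a start site inside them, but within 1000 bp of one, had 1493 higher and 1269 lower of 13794, which turned to 1157 and 1960 with total counts. In coding exons 903 of 13330 rose and 1218 fell, in introns 11299 of 91469 rose and 7759 fell, and between genes 11467 of 96545 rose and 9542 fell. With total counts, introns, coding exons and intergenic regions each had more lower than higher calls (44.2%, 24.4% and 41.2% higher), while start-site regions kept 75.6% higher.

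**Figure D1:**
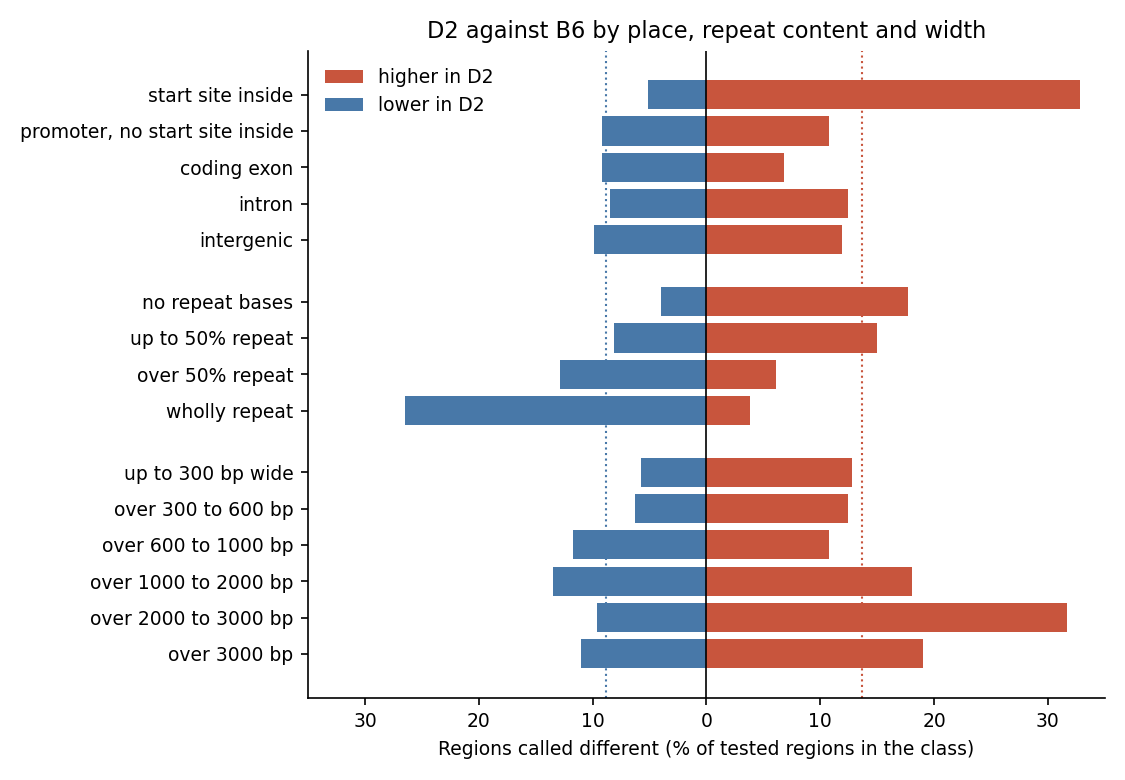
Share of tested regions called higher in D2 (right, red) and lower in D2 (left, blue) by place, soft-masked repeat content and width, with dotted lines at the shares over all regions (13.7% and 8.80%). Regions holding a start site and regions of 2000 to 3000 bp lean to higher in D2, and wholly repeat-masked regions lean to lower in D2.

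Taken as a share of all counts, regions with a start site inside held 34.2%, 33.3% and 34.6% in the B6 libraries and 40.5%, 37.6% and 39.6% in D2. All D2 values lay above all B6 values, D2 replicate 2 was the lowest of the D2 libraries, and p was 0.1 by an exact permutation test (two-sided), the lowest that 3 against 3 libraries allow. The congenic lines had 34.0% and 33.9% in B6-13D2 and 41.2%, 41.0% and 36.4% in D2-13B6. The changes at promoters were mostly small. A test against a minimum fold of 1.5 left 857 promoter regions higher and 505 lower, of 9444 and 2512 without it. Loess offsets left 6431 higher and 4017 lower, and the total of 11956 called promoter regions was 7833 without B6 replicate 2 and 7890 without D2 replicate 1.

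Counted by gene, 17172 protein-coding genes had a tested promoter region. Of these, 7784 (45.3%) had at least 1 region higher in D2 and none lower, 866 (5.04%) had the reverse, and 387 had both. Promoter regions of 800 to 1500 bp that rose held the letters GCGCATGCG of NRF1, a factor of genes for mitochondrial and general cell functions, in 4.01% of cases, against 0.351% of those that fell and 1.96% of all. The letters ACCGGAAGT of ETS factors stood in 3.14%, 0.702% and 1.64%, and the YY1 letters, which marked lower regions away from promoters, in 4.14%, 1.4% and 2.28%. All motifs were read on both strands.

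Width and repeat content divided the calls too. Regions of 2000 to 3000 bp were called most often, at 41.3% of 8575 (2716 higher and 825 lower), and those up to 300 bp least, at 18.5% of 30764 (3924 and 1769). Calls also rose with level: with regions split into 4 equal groups by mean normalised CPM, 10.1% were called in the lowest group and 35.1% in the highest. In the 24364 regions free of soft-masked bases, 4301 rose in D2 and 975 fell. Among the 4459 wholly soft-masked regions the order was turned, with 172 higher and 1181 lower and a median log2 fold change of -0.38. Those regions held 0.411%, 0.447% and 0.440% of counts in the B6 libraries and 0.281%, 0.253% and 0.293% in D2 (exact permutation p = 0.1, two-sided, the smallest possible).

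Named promoters are the 6 protein-coding ones with the smallest p-values in each direction, among those without overlap of D2 and B6. Of those that rose, Cd244a encodes the 2B4 receptor of natural killer cells (chr1:171558130-171560125, ENSMUSG00000004709.14). Its B6 libraries had 7.42, 7.56 and 6.70 normalised CPM and its D2 libraries 28.0, 27.0 and 26.7. The groups were far apart, with a log2 fold change of 1.91 (SE 0.17) and an adjusted p of 3.27e-14, and D2-13B6 had 24.4, 24.8 and 24.2. Glrx, encoding a glutaredoxin that reduces protein-glutathione disulfides, had 5.22, 5.43 and 6.70 in B6 and 18.4, 18.05 and 18.1 in D2 at chr13:75839263-75840772 (log2 fold change 1.65, SE 0.18). Its D2-13B6 values were 24.8, 33.3 and 21.3, above B6-13D2 (4.96 and 4.93).

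Zfp960, a zinc finger gene, had 17.998, 16.8 and 18.9 normalised CPM in B6 and 54.8, 43.7 and 53.1 in D2 (chr17:17062792-17065116, log2 fold change 1.498, SE 0.17). Gm13276 shares its region with Gm26525 and went from 0.865, 0.732 and 1.58 to 8.02, 6.83 and 7.54 (chr4:88785583-88785817, log2 fold change 2.80, SE 0.24). In both regions no B6 library reached the lowest D2 library. Afg3l2, which encodes a subunit of a protease of the inner mitochondrial membrane, had means of 3.32 ± 0.543 in B6 and 10.5 ± 0.835 in D2 (SD, n = 3 each), a rise of 1.68 (SE 0.19) on the log2 scale, and D2-13B6 had 5.14, 6.64 and 4.75, with a mean nearer to B6 than to D2. The region of 2410141K09Rik, shared with Gm26754 (chr13:66440817-66441733), had 5.74 ± 0.881 and 26.3 ± 3.30 (SD, n = 3 each), a rise of 2.21 (SE 0.18). It had the opposite order in the congenic lines: B6-13D2 had 24.3 and 25.1 and D2-13B6 2.39, 2.94 and 1.55.

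Among the promoters that fell, Trim12a, of the tripartite motif family that includes retroviral restriction factors, had 15.4, 15.7 and 16.5 normalised CPM in B6 and 0.882, 0.830 and 1.15 in D2 (chr7:104298742-104300894, 140 bp from the start site), a 16.6-fold difference (log2 fold change -4.06, SE 0.20, adjusted p = 1.65e-25). Gm14412 had 9.38, 11.9 and 12.3 in B6 and 0.259, 0.562 and 0.630 in D2 (chr2:177323991-177325111, log2 fold change -4.52, SE 0.24). At both promoters the D2 libraries were close to 0 and far under the B6 libraries. Gm21863 had means of 14.6 ± 1.85 and 1.83 ± 0.245 in B6 and D2, and Gm4767 of 7.27 ± 1.67 and 0.598 ± 0.220 (SD, n = 3 each; log2 fold changes -3.00, SE 0.19 and -3.59 (SE 0.25)).

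The most open of these falling promoters lay between Elobl and Coil, the gene of coilin, a marker of Cajal bodies (chr11:88967393-88969702, 462 bp from the start site of Elobl and in no gene). It had 94.98, 100.99 and 99.4 normalised CPM in B6 and 12.5, 13.4 and 13.2 in D2 (log2 fold change -2.91, SE 0.18, adjusted p = 2.16e-21), and 19.3, 24.2 and 21.2 in D2-13B6. At Pnp2, a copy of the purine nucleoside phosphorylase gene Pnp next to it, chr14:50955422-50956678 had 14.7, 16.3 and 17.8 in B6 and 2.36, 2.28 and 2.52 in D2 (log2 fold change -2.76, SE 0.19). Reads of near-identical copies may be shared between Pnp and Pnp2, which makes this value uncertain. The B6-13D2 means of all 6 falling promoters ran from 8.26 to 105 normalised CPM, and the D2-13B6 means from 0.339 to 21.6.

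**Figure D2:**
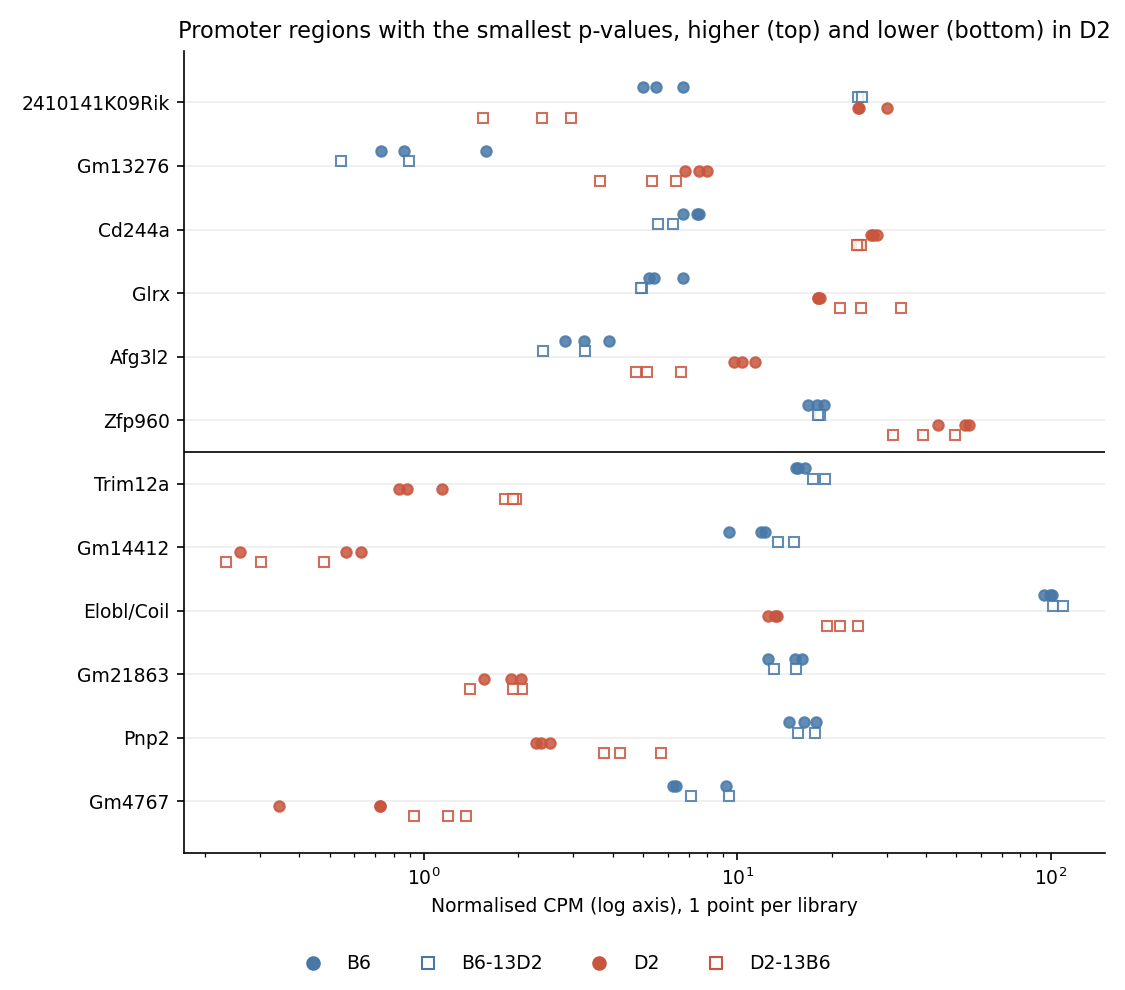
Normalised CPM in each library (log axis) at the 6 rising and 6 falling promoter regions, with filled circles for B6 and D2 and open squares for the congenic lines. The 12 were picked among regions where D2 and B6 do not overlap. D2-13B6 lies on the same side of B6-13D2 as D2 of B6 except at 2410141K09Rik on chromosome 13. At Afg3l2, D2-13B6 lies between B6 and D2.

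The regions named away from start sites, again picked among those without overlap of D2 and B6, included larger changes. A region over a coding exon of Cmya5, which encodes a structural protein of muscle, and over the gene A630019I02Rik had 2.69, 2.74 and 3.15 normalised CPM in B6 and 32.9, 25.5 and 29.8 in D2 (chr13:93096391-93097405, log2 fold change 3.36, SE 0.20, adjusted p = 2.79e-22). D2-13B6 had 7.95, 11.3 and 7.05 there, less than D2 and more than B6-13D2 (2.91 and 2.64). The other 3 distal regions with the smallest p-values among those higher in D2 were a region 2783 bp from Cbx7, which encodes a polycomb subunit, with 0.898, 0.305 and 0.832 in B6 and 15.3, 16.7 and 14.1 in D2, and a pair on chromosome 13. The pair had folds of 47.2 (chr13:65990568-65991884) and 10.3 (chr13:66588310-66590725), and both were open in B6-13D2 and near B6 levels in D2-13B6.

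Lower in D2, a region 8681 bp from the immediate early gene Ier2 had 19.1, 16.5 and 18.7 normalised CPM in B6 and 0.571, 0.589 and 0.458 in D2 (chr8:84652186-84654171), a 33.3-fold difference (log2 fold change -5.06, SE 0.22). Another, 12376 bp from Mycn, a MYC family transcription factor gene, went from 12.01, 11.7 and 10.5 to 0.493, 0.428 and 0.487 (chr12:12926537-12928240, log2 fold change -4.59, SE 0.23, adjusted p = 1.65e-25). D2 was low and B6 high in every library of both regions, with no overlap. The other 2 distal falls named, chr2:177277294-177278309 and chr12:23001426-23002640 in an intron of 2410018L13Rik, were 113-fold and 109-fold. Soft-masked bases made up 64.3% of the region by Ier2, 33.8% of that by Mycn, 22.1% of that on chromosome 2 and 49.2% of that in 2410018L13Rik.

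The AP-1 letters became more frequent from the regions most lowered in D2 to those most raised. Ranked by log2 fold change, the 98612 regions of at most 500 bp over 1000 bp from a start site held the letters in 3.71% of the lowest twentieth, 7.75% of the tenth of the 20 groups and 46.7% of the highest twentieth. Of the 13725 regions with the letters, 6013 were higher in D2 and 257 lower, with a median log2 fold change of 0.62. Without them, 6798 of 84887 were higher and 5279 lower, with a median of -0.06. With total counts the figures were 5226 and 331 with the letters, and 5159 and 6567 without. In wider distal regions of 800 to 1500 bp the letters stood in 40.8% of the higher, 16.1% of the lower and 22.1% of all, and in promoters of that width in 20.7%, 15.9% and 17.4%.

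The AP-1 letter regions held 1.76%, 1.79% and 1.82% of all counts in the B6 libraries and 2.45%, 2.85% and 2.65% in D2. Every D2 library was above every B6 library (two-sided exact permutation p = 0.1, the smallest possible). B6-13D2 had 1.73% and 1.72%, and D2-13B6 had 4.48%, 4.96% and 4.38%, so that the 2 lines with a D2 background differed from each other as well. The median log2 fold change of these regions in D2-13B6 against B6-13D2 was 1.54. The summed fibroblast markers were at 93.1 to 98.9 normalised CPM in B6 and 112 to 121 in D2 over the 8 markers with a region, of which Twist1, Dcn and Col1a1 rose. These were 3 of 14 regions (21.4%), against 24.8% of all promoter regions. The list median of 0.25 was near the 0.28 of all regions with a start site inside. In the congenic lines it was 1.20, against 0.39 for regions with a start site inside. The part of fibroblasts or of differentiated cells in the result was not tested, and in such bulk libraries more cells of a type and more open sites per cell cannot be told apart.

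**Figure D3:**
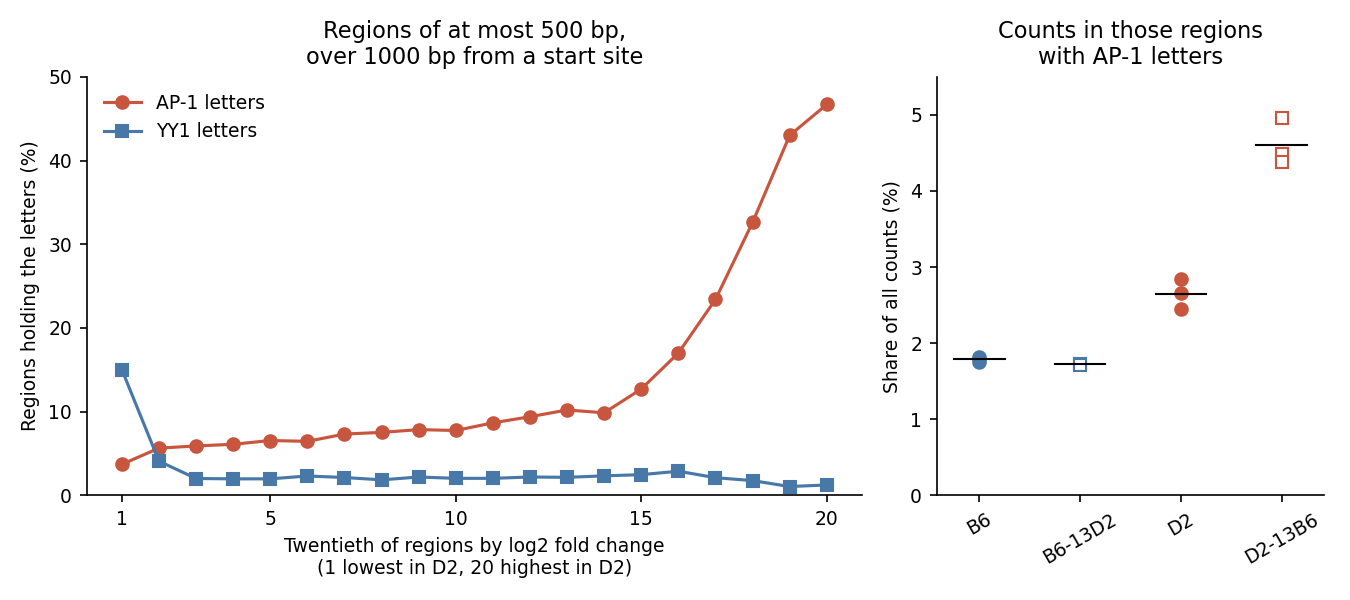
Left, share of regions of at most 500 bp and over 1000 bp from a start site that hold the AP-1 (red) or YY1 (blue) letters in each twentieth of the log2 fold change of D2 against B6. Right, share of all counts in such regions with AP-1 letters, with 1 point per library and a line at the mean: D2 lies above B6, and D2-13B6 above D2.

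Promoters of AP-1 subunit genes, were looked up after the letters had been counted. As background, 45.3% of protein-coding genes had a promoter region higher in D2 and none lower. Fosl2 had 20.5, 23.5 and 25.7 normalised CPM in B6 and 45.9, 41.2 and 41.5 in D2, a log2 fold change of 0.89 (SE 0.17, adjusted p = 6.21e-05). Jun had 56.2, 56.8 and 61.2 and 99.9, 83.8 and 106, a log2 fold change of 0.74 (SE 0.17). Neither gene's D2 values overlapped its B6 values. At least 1 region rose at Fos, Fosb, Fosl1, Junb, Jund, Atf3 and Batf3 too, with log2 fold changes of the best region between 0.47 at Junb and 0.71 at Jund, while Batf, at -0.13, was not called. With total counts Fosl1 was not called either (adjusted p = 0.0729).

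Other letters were searched in the same narrow distal regions. Letters of TEAD factors, which act with AP-1 at enhancers (ACATTCCA), stood in 4.08% of the higher, 1.92% of the lower and 2.99% of all. The octamer of POU factors such as OCT4 (ATGCAAAT) stood in 2.40%, 3.58% and 3.68%, and the OCT4-SOX2 composite in 0.103%, 0.929% and 0.576%. ESRRB letters (TCAAGGTCA) stood in 0.604%, 1.24% and 1.44%, and KLF letters (GGGTGTGGC) in 0.977%, 1.78% and 2.12%. The composite of CTCF, the insulator protein, stood in 0.485%, 0.658% and 1.38%, so that it was rarer among regions called in either direction. For GATA letters (AGATAAG) the values were 4.32%, 4.16% and 4.36%.

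Repeat-masked regions that fell in D2 shared a word of 14 letters. Of the 874 wholly soft-masked regions of at most 400 bp that were lower in D2, 275 (31.5%) held ACCAAGATGGCGAC on one strand or the other, the most frequent word of that length in them. It overlaps the YY1 letters and was picked from these regions, so that this count is a description. The word stood in 431 of 2352 (18.3%) such regions not called, in 17 of 132 higher ones and in 1.53% of all 69834 regions up to 400 bp. Over all 1069 regions with the word, 17 were higher in D2 and 427 lower, with a median log2 fold change of -0.66, and -0.93 in D2-13B6 against B6-13D2. The called lower ones lay on 20 chromosomes. The region chr2:95648181-95648467, printed above, is one of them.

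Imprinted genes, expressed from 1 parental copy and controlled by differentially methylated regions, rose as a list in D2 against B6. Of 22 genes, 20 had promoter regions (Ndn and Rtl1 had none by the rule of 1000 bp from a GENCODE start site), 44 regions in all. Of these, 23 were higher in D2 and 1 lower, at 16 genes and 1 gene, and the median log2 fold change was 0.53, against 0.16 over all promoter regions, of which 24.8% rose and 6.6% fell. With total counts 23 were higher and 3 lower. The higher count ran from 19 to 24 over the other settings tried but was 8 with a minimum fold of 1.5. Of the imprinted regions 52.3% rose, against 32.8% of regions with a start site inside and 40.9% of housekeeping regions. Those sets had medians of 0.28 and 0.39 in D2 against B6. In the congenic lines the imprinted median was 0.28, above the 0.17 of all promoter regions. It was below the 0.39 of regions with a start site inside and the 0.54 of housekeeping genes there.

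Peg3, a paternally expressed zinc finger gene, had 51.5, 44.6 and 53.2 normalised CPM in B6 and 132, 100.8 and 138 in D2 (log2 fold change 1.31, SE 0.18, adjusted p = 4.84e-08). Impact, also paternally expressed, had 41.6, 35.5 and 46.2 and 108, 91.6 and 99.2 (log2 fold change 1.28, SE 0.18). Both were separated without overlap by more than 2-fold in the means. Snrpn, the gene at the centre of the Prader-Willi region, went from 15.8, 14.9 and 14.6 to 34.8, 26.8 and 36.8 (log2 fold change 1.12, SE 0.17), and Peg13, a non-coding RNA gene, from 15.6, 13.7 and 16.1 to 34.8, 29.0 and 28.5 (1.02, SE 0.17). The congenic lines repeated the rise at Impact (1.21) and Peg13 (1.01), less so at Peg3 (0.76), while at Snrpn their log2 fold change was 0.00 (adjusted p = 0.992). The growth inhibitor Grb10 rose by 1.13 in its region with the smallest p-value, which starts at chr11:11939540 and had 2.60 in the congenic lines. Another Grb10 region, over the 250 bases before a RefSeq start site, had 0.59 in D2 against B6. Igf2, at -0.43, was not called, and neither were H19, Dlk1 and Cdkn1c.

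**Figure D4:**
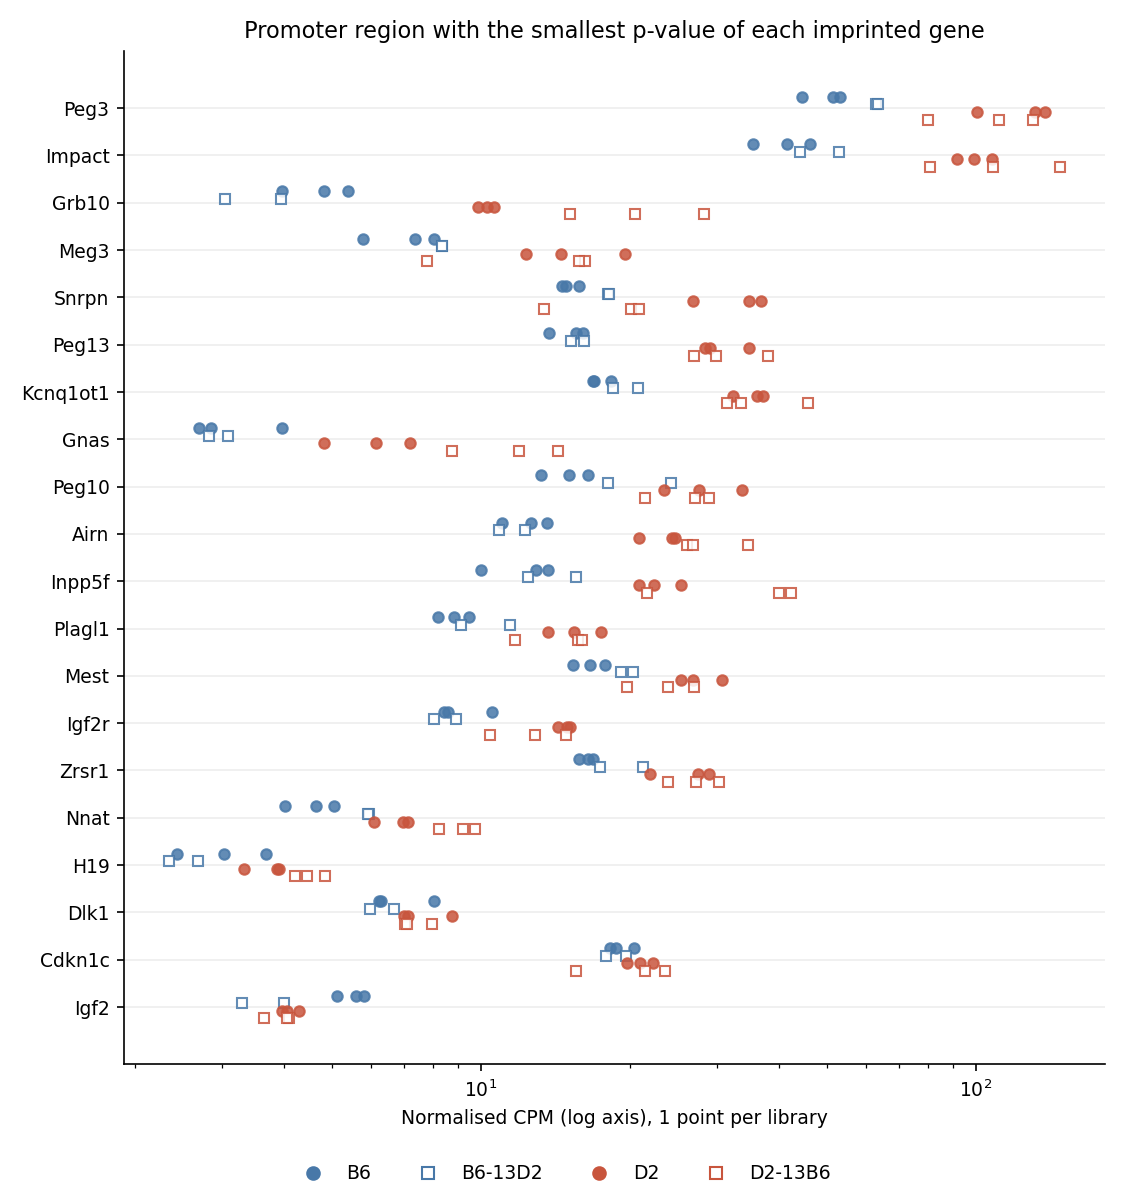
Normalised CPM in each library (log axis) at the promoter region with the smallest p-value of each of 20 imprinted genes, ordered by log2 fold change of D2 against B6. D2 lies above B6 without overlap from Peg3 down to Nnat, and Igf2 at the bottom has D2 below B6. Other regions of a gene can differ: a further Nnat region, over the bases before a RefSeq start site, had a log2 fold change of -0.03.

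Upstream sequence of imprinted genes was searched for TGCCGC, the core letters bound by ZFP57, on both strands. The RefSeq promoter table (GRCm38.p6) holds 29 windows for 16 genes of the list, and 4 of them, of which 2 are Mest windows offset by 3 bases with the same matches, had the letters within 250 bases before the start site, against 8.68% of all 32817 windows. Shown are Peg3, where the rise was largest but the window lacks the letters, and Plagl1 and Mest, whose windows hold them (in capitals, here as the reverse complement). Each is written 5′ to 3′ on the strand of the gene, which is minus for Peg3.
Peg3, chr7:6730420-6730669: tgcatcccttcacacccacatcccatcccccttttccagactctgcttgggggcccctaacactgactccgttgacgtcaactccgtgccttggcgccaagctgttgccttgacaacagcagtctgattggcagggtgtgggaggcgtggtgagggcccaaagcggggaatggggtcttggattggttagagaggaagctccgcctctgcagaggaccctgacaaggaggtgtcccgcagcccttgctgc
Plagl1, chr10:13090582-13090831: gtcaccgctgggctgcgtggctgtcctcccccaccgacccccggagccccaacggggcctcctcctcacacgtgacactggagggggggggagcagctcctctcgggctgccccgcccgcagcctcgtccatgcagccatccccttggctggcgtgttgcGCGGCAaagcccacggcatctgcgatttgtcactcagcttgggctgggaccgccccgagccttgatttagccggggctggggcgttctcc
Mest, chr6:30737800-30738049: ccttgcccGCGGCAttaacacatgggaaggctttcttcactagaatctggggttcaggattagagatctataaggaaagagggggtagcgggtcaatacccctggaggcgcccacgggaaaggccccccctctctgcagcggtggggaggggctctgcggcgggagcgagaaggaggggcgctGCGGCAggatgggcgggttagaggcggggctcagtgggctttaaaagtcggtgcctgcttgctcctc

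Plagl1, a zinc finger gene, had 9.45, 8.84 and 8.19 normalised CPM in B6 and 17.5, 13.7 and 15.4 in D2 in the region over this window (log2 fold change 0.81, SE 0.17). Mest had 16.6, 15.4 and 17.8 and 30.7, 25.4 and 26.9 (log2 fold change 0.73, SE 0.17). Neither pair of groups overlapped. A second Plagl1 region, downstream, was the only one of the 44 that fell.

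Pluripotency promoters are set against all promoter regions, of which 31.4% were called, 24.8% higher and 6.6% lower. Of 13 promoter regions of core factors none rose and 2 fell, both at Lin28a, a regulator of let-7 microRNA processing, whose best region had 16.7, 20.8 and 18.04 normalised CPM in B6 and 10.3, 9.45 and 9.14 in D2 (log2 fold change -0.94, SE 0.17). The best regions of Pou5f1 (-0.42), Dppa4 (-0.33) and Dppa5a (-0.29) were not called. In the naive state list, 1 of 23 regions rose, at Klf5 (0.69), and 2 fell, at Prdm14, a repressor of DNA methyltransferases (-0.50), and at Esrrb (-0.47). Klf4, at 0.39, was not called. The list medians were -0.26 for core and 0.01 for naive genes, and with total counts, where all regions shifted to -0.14, 6 core and 7 naive regions were lower and the naive median turned to -0.12. In D2-13B6 against B6-13D2 the medians were -0.72 for core and -0.71 for naive genes.

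Lists of other states are read against the same shares of all promoter regions, 24.8% higher and 6.6% lower. In the formative list 1 of 18 regions rose, at Etv5, a target of ERK signalling (0.59). Primitive endoderm had 1 rise, at Dab2 (0.81), and 1 fall of 13. None of the 10 primitive streak regions and none of the 4 regions of the 2-cell-like state was called, and 8 of the 12 genes of that state had no region. Neural genes had 2 falls of 12, at Pax6 (-0.74) and Olig2 (-0.56), trophoblast 1 rise of 15, at Plac1 (1.37), and germline 2 rises of 15 (1 rise and 1 fall with total counts), at Dazl (0.88) and Tex101 (0.92). Fibroblast genes had 3 rises of 14, at Twist1 (0.62), Dcn (0.75) and Col1a1 (0.48), or 21.4%, with a list median of 0.25, and 1.20 in the congenic lines.

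In the LIF and STAT3 list, 7 of 28 regions (25%) rose and none fell, with either scaling, a share near the 24.8% of all promoter regions that rose. Jak2, the kinase bound to cytokine receptors, had 15.4, 13.1 and 14.2 normalised CPM in B6 and 30.6, 25.4 and 30.4 in D2 (log2 fold change 1.01, SE 0.18), and the LIF receptor gene Lifr had 11.5, 10.8 and 11.2 and 20.8, 17.0 and 21.8 (0.83, SE 0.17). The D2 and B6 values of both were apart. Jak1 (0.74) and Stat3 (0.55) rose too. Among targets of FGF and MEK, 4 of 14 (28.6%) rose, again near that share, at Etv5, Spred1 (0.59), Fos (0.51) and Egr1 (0.48), and none fell, with a list median of 0.36.

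Genes of chromatin repression rose at a rate near that of all promoter regions (24.8% higher and 6.6% lower). In the list of heterochromatin and zinc finger cofactors, 13 of 47 regions rose and 3 fell, with a median of 0.36. Suv39h1, a histone H3 lysine methyltransferase, had 11.1, 8.29 and 11.99 normalised CPM in B6 and 19.98, 19.04 and 18.4 in D2 (log2 fold change 0.86, SE 0.17), and Atf7ip, a partner of SETDB1, 7.78, 6.71 and 8.27 and 14.03, 11.99 and 17.3 (0.92, SE 0.18). No D2 library of these 2 genes overlapped B6. Fam208a, of the HUSH complex, rose by 0.75. At the remodeller gene Smarcad1, a region at one start site fell (-0.90) and one at another rose (0.59).

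Polycomb genes had 11 rises and 3 falls of 40 regions (27.5% and 7.5%), with a median of -0.07. These shares are near the 24.8% higher and 6.6% lower of all promoter regions. Bmi1 (1.04) and Rnf2 (0.76), of the first polycomb complex, rose, and Kdm2b had 1 region higher (0.98) and 2 lower. In the DNA methylation list 6 of 28 rose (21.4%, again near that share), including the methyl-CpG binding gene Mbd2 (0.66) and the demethylase gene Tet3 (0.64). In that list 1 region fell, at the de novo methyltransferase gene Dnmt3a. Dnmt3a had 28.8, 29.3 and 28.0 normalised CPM in B6 and 19.2, 19.3 and 20.9 in D2, with no overlap (log2 fold change -0.54, SE 0.16). Housekeeping genes, set beside these as a reference, had 9 rises, among them Pgk1 (0.82), Hprt (0.83) and Ywhaz (0.75), and 1 fall, at Eef1a1 (-0.71), of 22 regions, with a median of 0.39. Their share of rises, 40.9%, lay above the 24.8% of all promoter regions.

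Genes known for variants between B6 and D2 were then looked up. Glo1, which encodes glyoxalase 1 and lies in a segment that is duplicated in DBA/2J mice, had 17.4, 20.9 and 20.2 normalised CPM in B6 and 47.7, 45.4 and 38.1 in D2 at chr17:30611352-30613002 (log2 fold change 1.17, SE 0.17, adjusted p = 2.31e-07). D2-13B6 had 41.9, 54.2 and 39.8 and B6-13D2 20.1 and 22.3, so that the lines separated by background there. Btbd9, its neighbour, had 15.8, 13.7 and 14.2 and 32.3, 27.1 and 34.3 (log2 fold change 1.10, SE 0.17). Within Glo1, Btbd9 and the dynein gene Dnah8 together, 60 of 126 regions were higher in D2 and 1 was lower: 11 of 13 in Glo1, 15 of 57 in Btbd9 and 34 of 56 in Dnah8 rose. These are shares of 84.6%, 26.3% and 60.7%, against 13.7% higher and 8.80% lower over all regions tested. Median log2 fold changes by gene were 0.66, 0.16 and 0.765 in D2 against B6, and 0.16, 0.08 and 0.37 in the congenic lines. The median log2 fold change was 0.56 over the 126 regions and 0.26 in the congenic lines, and a region shared by Glo1 and Dnah8 that rose by 1.48 in D2 had 0.04 there.

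Of the list's 29 promoter regions 15 (51.7%) rose and none fell, against 24.8% and 6.6% of all promoter regions, or 12 and 1 with total counts. In the fit with TMM, 12 of the rises were in those 3 genes and the others at Klrd1, Myo5a and Ahr. Klrd1, whose product CD94 is absent in DBA/2J, had 0.898, 0.671 and 0.438 normalised CPM in B6 and 1.66, 1.82 and 3.18 in D2 (log2 fold change 1.68, SE 0.29). Myo5a, the dilute coat colour gene, had 21.1, 18.7 and 25.5 and 35.7, 33.7 and 36.6 (0.70, SE 0.17), and Ahr, the aryl hydrocarbon receptor gene, 10.4, 10.6 and 11.8 and 18.7, 14.7 and 20.1 (0.71, SE 0.17). The 3 genes showed no overlap of D2 with B6. Nnt (-0.24), Hc (0.32), Gabra2 (0.06) and Gpnmb (-0.04), which also carry variants between the strains, were not called. Tyrp1, the brown coat colour gene, had no promoter region.

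Gene families in tandem clusters are read against all regions, of which 22.5% were called, 13.7% higher and 8.80% lower. The Skint genes, immunoglobulin-like genes of skin and thymic epithelium, stood apart with 27 of 40 regions lower in D2 and 4 higher, a median log2 fold change of -2.18, and -2.11 in the congenic lines. Zinc finger genes had 400 regions higher and 303 lower of 2485 (28.3% called). Olfactory receptors had 120 higher and 156 lower of 1283 (21.5% called), and vomeronasal receptors 56 and 97 of 648 (23.6%), both near that share. Of the Hox regions, 12.2% of 98 were called, 1 higher and 11 lower, and 10.8% of 111 regions of clustered protocadherins. With total counts zinc finger genes turned to 360 higher and 410 lower, while Skint genes stayed at 2 and 29.

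Along the chromosomes the strain difference was spread widely, with 20.7% to 24.4% of regions called on each autosome. Of 2332 bins of 1 Mb with at least 30 tested regions, 9 had under 5% called and 19 over 50%, and the middle 90% of bins lay between 11.7% and 35.1%. The bin at 112 to 113 Mb of chromosome 4, which holds Skint1, Skint2, Skint3, Skint4, Skint9 and Skint10, had the highest share, 90.9% of 33 regions, 3 higher and 27 lower, with a median log2 fold change of -3.40. It was followed by bins on chromosome 12 at 22 Mb (65.6% of 61, median -1.42) and 115 Mb (63.4% of 71, median -0.60), on chromosome 4 at 64 Mb by the tenascin gene Tnc (62.0% of 50, median 0.74) and on chromosome 12 at 20 Mb (61.9% of 105, median -1.37). Also on chromosome 12, the bin at 18 Mb had a median of -1.14.

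The lowest shares were found at 113 Mb of chromosome 10 and at 4 Mb of chromosome 14, with no call among 33 and 30 regions. At 87 Mb of chromosome 5, over the casein genes and several sulfotransferases, 1 of 51 regions was called, at 5 Mb of chromosome 9, over Casp1, Casp4 and Casp12, 2 of 81, and at 62 Mb of chromosome 6, 1 of 33. The highest medians were 0.87 at 65 Mb of chromosome 13, where the congenic lines had -2.49, and 0.81 at 61 Mb of chromosome 4, with Mup5, Mup17 and Mup18 of the major urinary proteins. At 127 Mb of the X chromosome, by Cldn34c4, the median was 0.71.

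Of 22 bins off chromosome 13 with a median log2 fold change of at least 0.5 in either direction, all 16 low bins were also below 0 in D2-13B6 against B6-13D2. Of the 6 high bins 3 were above 0 there, and the 3 others lay on the X chromosome. Neighbouring bins at 146 and 147 Mb of chromosome 4, named after their values were seen, had 54 of 101 and 116 of 204 regions lower in D2, with medians of -0.89 and -0.83.

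**Figure D5:**
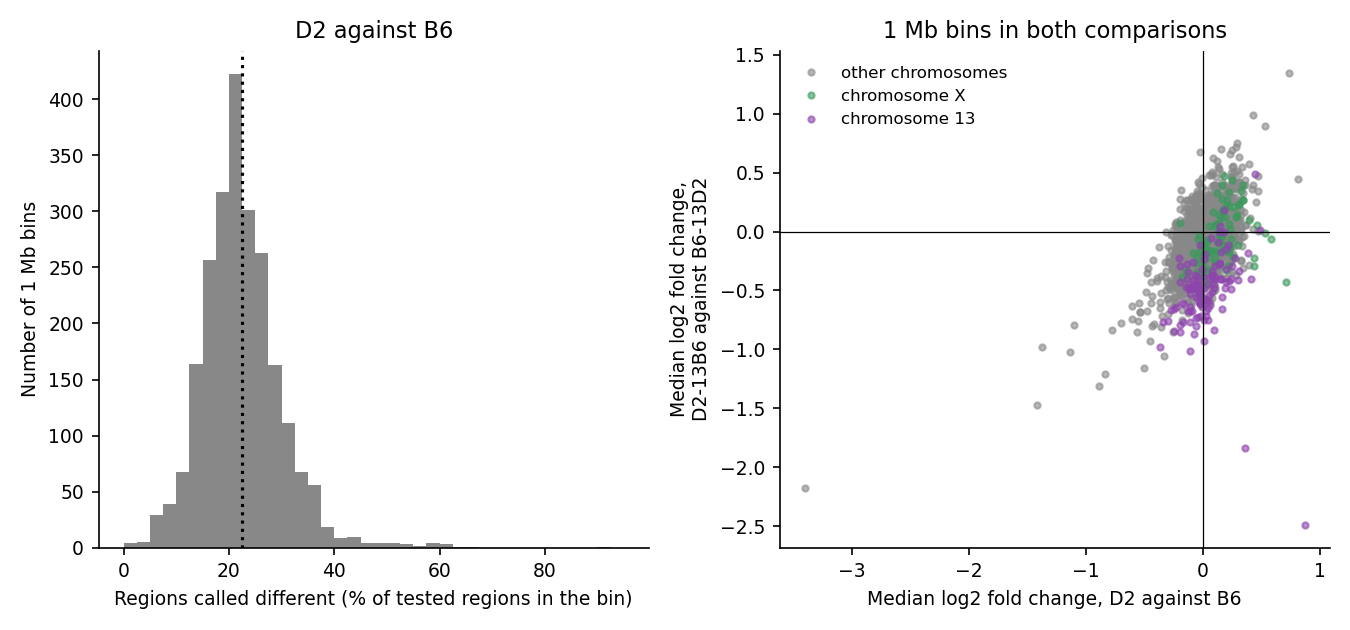
Left, number of 1 Mb bins by the share of their regions called different between D2 and B6, with a dotted line at the share over all regions (22.5%). Right, median log2 fold change of each bin in D2 against B6 and in D2-13B6 against B6-13D2, in which most bins with strong shifts lie in the lower left, and 111 of 116 bins of chromosome 13 (purple) and 3 high bins of X (green) lie below 0 in the congenic comparison.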

How the data were processed

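ATAC-seq counts per region were analysed for 11 libraries, 3 of D2 and 3 of B6 in the comparison reported. The authors deposited whole-number counts without normalization; per the file headers, duplicate and mitochondrial reads had been removed. The submitters' processing notes name Trimmomatic 0.39, BWA 0.7.5, Picard 2.0.1, MACS 1.4.2, bedtools 2.9.2 and edgeR 3.34.1 and the build mm10; how multi-mapping reads were treated, the counting unit and any transposase shift are not given in the sources used here. Repeat-rich and duplicated regions depend on them.

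Counts were fitted with edgeR 4.0.16 (R 4.3.3): TMM, filterByExpr (1496 regions removed), robust quasi-likelihood, 1 coefficient per line over all 11 libraries, Benjamini-Hochberg adjustment over 246840 regions. The fit was tested on simulated data. Pairs of libraries of a line differed by more than sampling noise (chi-square per degree of freedom 2.06 to 4.12 in B6 and D2). The median SE of a log2 fold change was 0.26. SEs cover the spread between libraries of a line, not between lines of a strain, and floors cover counting error only. Annotation was GENCODE M21; a promoter lies within 1000 bp of a start site. Coordinates are as listed, counted from 1 to read sequence. DESeq2 1.42.0, RLE, total counts, loess, filters, a minimum fold of 1.5, a replicate block and leaving out each library were alternatives.

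Regions named are those with the smallest p-values among regions without overlap of D2 and B6: 6 promoters of protein-coding genes, 4 distal regions and 2 of 200 to 300 bp outside exons in each direction, on autosomes, promoters and distal regions with at most 1 per bin; the 5 bins of 1 Mb with the highest and lowest share called and 4 by median; up to 4 genes per list and all known variants; and families with at least 20 regions. Further names are said to be added. A few named items are not reported here. The members, 18 gene lists and 27 families were chosen with earlier results of these data known.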

Additional observations from a re-analysis of the deposited data

Results flagged for a closer look

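In 13 of the regions picked by p-value and in 16 promoter regions of list or AP-1 subunit genes, the difference of D2 and B6 was not the same in D2-13B6 against B6-13D2. The test was edgeR's quasi-likelihood test of the difference between both effects. It reuses the D2 and B6 libraries by which these regions were picked or called, so larger effects in D2 against B6 are favoured by the choice. The share of all tested regions with such a difference is not given here. The 2 counts therefore do not tell how unusual it is. Values are that difference on the log2 scale, then the effect in D2 against B6 and in the congenic lines. On chromosome 13, 4 regions had opposite signs in the congenic lines: chr13:65990568-65991884 at 12.15 (log2 fold changes 5.56 and -6.59, adjusted p = 1.60e-40), chr13:65485164-65485428 at 8.001 (log2 fold changes 2.68 and -5.32, adjusted p = 8.08e-27), chr13:66588310-66590725 at 7.63 (log2 fold changes 3.36 and -4.26, adjusted p = 9.25e-33) and the promoter of 2410141K09Rik at 5.63 (log2 fold changes 2.21 and -3.42, adjusted p = 7.60e-26). The region in Cmya5, further along chromosome 13, kept its sign with a smaller effect, at 1.70 (log2 fold changes 3.36 and 1.66, adjusted p = 4.72e-05).

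Off chromosome 13, effects of one sign differed in size. The tandem repeat in Arhgap10 gave 1.77 (log2 fold changes 3.30 and 1.53, adjusted p = 0.00681). The 3 AP-1 examples had larger effects in the congenic lines, with -1.10 (log2 fold changes 1.97 and 3.07, adjusted p = 0.0436) at chr3:77075154-77075420, -1.05 (log2 fold changes 1.68 and 2.73, adjusted p = 0.0295) in Rap1gap2 and -1.18 (log2 fold changes 1.85 and 3.04, adjusted p = 0.0286) by Itprid2. The falls at the promoter of Pnp2, -0.90 (log2 fold changes -2.76 and -1.86, adjusted p = 0.0155), by Ier2, -1.09 (log2 fold changes -5.06 and -3.97, adjusted p = 0.0147), and in 2410018L13Rik, -1.42 (log2 fold changes -6.77 and -5.36, adjusted p = 0.0235), were larger between D2 and B6. The fall at chr10:81978647-81978885 was called in D2 against B6 alone, at -4.56 (log2 fold changes -5.04 and -0.48, adjusted p = 8.65e-08).

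Promoter regions called between D2 and B6 are given in the same way. Larger in the congenic lines were the rises at the AP-1 subunit genes Fosl2, -0.92 (0.89 and 1.81, adjusted p = 0.0108), Fosl1, -0.97 (0.54 and 1.51, adjusted p = 0.0157), and Fos, -0.75 (0.51 and 1.25, adjusted p = 0.0433). The same held for Stat3, -0.74 (0.55 and 1.29, adjusted p = 0.0486), Col1a1, -0.99 (0.48 and 1.47, adjusted p = 0.00527), Dab2, -1.10 (0.81 and 1.91, adjusted p = 0.00348), and Grb10, -1.47 (1.13 and 2.60, adjusted p = 2.87e-04). Stat3, Col1a1 and Grb10, like the region in Rap1gap2 above, lie on chromosome 11. There the congenic median was 0.17, against -0.12 over all regions, so that their differences carry this shift. The falls at Esrrb, 0.83 (-0.47 and -1.30, adjusted p = 0.0163), Kdm2b, 1.04 (-0.93 and -1.97, adjusted p = 0.0171), and the downstream region of Plagl1, 0.98 (-0.50 and -1.47, adjusted p = 0.0126), were also larger there. Rises in D2 with congenic values near 0 or below were those of the 2 regions of Snrpn, 1.11 (1.12 and 0.00, adjusted p = 0.00164) and 1.43 (1.12 and -0.32, adjusted p = 0.00281), and a second region of Atf7ip, 0.80 (0.59 and -0.21, adjusted p = 0.0424). In the Glo1 segment these were the region shared by Glo1 and Dnah8, 1.43 (1.48 and 0.04, adjusted p = 0.00353), a further one of Glo1, 0.75 (0.84 and 0.09, adjusted p = 0.0488), and one of Dnah8, 0.94 (0.93 and -0.01, adjusted p = 0.00813).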

How the results depend on the processing

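Counts of called regions kept within 1.5 times of 55588 under all but one setting: 53245 with RLE size factors, 60417 with total counts, 56333 with loess offsets, 55686 with no filter, 54399 with at least 20 counts per library, 66522 from the 6 libraries alone, 54820 with DESeq2 and 41564 to 51473 without 1 replicate. A minimum fold of 1.5 left 14629. A fit of the 6 libraries with the replicate number as a replicate block gave 69395, against 66522 without it. The labels state no pairing by these numbers. Correlations of same-numbered deviations were 0.00477, 0.0588 and 0.0288, and the others ran from -0.0603 to 0.0406. D2 replicates 1 and 2 correlated best with the B6 library of the same number, and D2 replicate 3 with B6 replicate 1 (0.0406). All were small, and whether the numbers mark pairs is not settled by them. Promoter calls, 11956, ran from 7833 to 13099 without 1 replicate, and repeated calls in the congenic lines, 38792, from 29600 to 44147. The share of calls higher in D2 was 60.6% to 70.6% without 1 replicate and 46.8% with total counts. Regions with AP-1 letters that rose numbered 6013, 2499 with a minimum fold of 1.5 and 4833 to 5655 without 1 replicate. All 261 values of named regions under scaling, subset and replicate alternatives kept direction and call. These regions had been picked by smallest p-value and lack of overlap in the same libraries, so that this count was largely set by the choice. Counts of AP-1 regions, of imprinted promoters and of the split of calls under these settings were added after the data had been seen. The lower depth of B6 limits low regions most.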

Other observations

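Regions of the X chromosome were called less often than those of any autosome, at 18.1% of 6838, and more of the calls were higher in D2 (938 against 298), with a median log2 fold change of 0.13, or 0.01 with total counts. Over all regions 13.7% were higher and 8.80% lower (22.5% called). Among immune gene clusters, the major histocompatibility genes H2 had 25 regions higher and 17 lower of 110 (38.2% called; 21 and 21 with total counts), and the T cell receptor and immunoglobulin segments 72 higher and 94 lower of 456 (36.4%). The Schlafen genes, which restrain growth and viral replication, had 7 of 33 higher and none lower, and 4 higher with total counts. Major urinary protein genes had 7 of 23 higher and 2 lower, natural killer receptor genes Klr 8 of 44 and 3, and the Rhox homeobox genes 2 of 34 and none. Regions by ribosomal protein genes, many of them processed copies, had 42 higher and 54 lower of 393, and 40 and 88 with total counts.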
